A study of Mus musculus with 25 samples.

Results

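Transcript levels of 9 NRF2 target genes were followed through the livers and tumors of mice whose hepatocytes lack Mcl-1, an anti-apoptotic protein of the BCL-2 family. The genes were Hmox1, Gclc, Gclm, Slc7a11, Srxn1, Txnrd1, Nqo1, Gsta4 and Gstm1. They are a list of textbook targets taken by name, chosen with earlier results of these data known. They are 9 of the 17016 genes that carried a symbol on the array, and each was read from its probe with the highest mean signal. The study measured whole-liver RNA of untreated mice on 25 single-colour arrays and compared genotypes, ages, and tumors with the liver beside them. The mice of 2 months were 2 wild types (animals 31 and 34), 3 hemizygous animals (27, 28 and 30) and 3 animals with the hepatocyte-specific Mcl-1 knockout (137, 64 and 69). The mice of 12 months were 3 wild types (552, 641 and 1110) and 4 knockouts (1109, 638, 702 and 793), and the mice of 8 months were 3 knockouts (1347, 1287 and 934). From the 7 older knockouts, tumor tissue and the liver beside it were measured on separate arrays. The study describes the genotypes as littermates, and the labels give no strain, sex, Cre line or deleted exon.

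NRF2, encoded by Nfe2l2, is a transcription factor that the adaptor protein KEAP1 hands to a ubiquitin ligase in unstressed cells. Oxidants and electrophiles modify KEAP1, NRF2 then accumulates and binds antioxidant response elements together with small MAF proteins, and the repressor BACH1 competes for the same elements, most of all at Hmox1. In liver the targets supply glutathione, reduce thioredoxin and peroxiredoxins, detoxify quinones and aldehydes, and break down heme.

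Values are given as levels, which are the log2 processed signal of a probe minus the 75th percentile of its array, so 1 unit is a doubling and levels of different genes cannot be set against each other. Of the 9 genes, 8 were well above background on all 25 arrays, and none was saturated. Slc7a11 was well above background on 4 arrays only and did not enter the tests between livers. All 8 hepatocyte markers with a probe were well above background on every array. Between 60.3% and 84.9% of probes per array were well above background, and wild-type 641 had the highest share. Arrays lay on 8 slides scanned on 2 days, and no slide held wild-type and knockout liver of 2 months. Nor did any slide hold wild-type and knockout arrays of 12 months, or knockout arrays of different ages. Between genotypes at 12 months and between knockout ages, group therefore cannot be told apart from slide. In whole liver, fewer cells of a type and less RNA per cell cannot be told apart.

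RefSeq promoters (GRCm38.p6, 250 bases before to 50 bases after a start site) were on hand for 6 of the 9 genes and were searched on both strands for the antioxidant response element core, TGACNNNGC. A match lay in a promoter of 3 of these 6 genes, Gclm, Txnrd1 and Srxn1, against 13.99% of 27025 genes and 12.4% of 32851 promoters in the table. The AP-1 site TGANTCA, which resembles the element and is bound by FOS and JUN proteins, lay in 7.81% of all promoters and at 2 places upstream of Srxn1. The second of these is followed by GC and so holds TGANTCAGC, a form looked for after the first searches and present in 1.19% of all promoters. The stretches below carry the matches in capitals and are shown because Gclm and Srxn1 had the most contrary levels of the set. The Gclm stretch is chr3:122245383-122245471, the Txnrd1 stretch is chr10:82859074-82859162 and the Srxn1 stretch is chr2:152105382-152105523, all on the plus strand. In Gclm and Txnrd1 the capitals are the core on the minus strand, and in Srxn1 they are the AP-1 sites. The core match counted for Srxn1 lies after the start site, outside the stretch shown.
Gclm: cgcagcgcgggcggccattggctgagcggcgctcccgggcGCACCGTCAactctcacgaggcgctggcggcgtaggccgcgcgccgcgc
Txnrd1: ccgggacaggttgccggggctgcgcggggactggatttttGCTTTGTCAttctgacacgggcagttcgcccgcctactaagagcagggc
Srxn1: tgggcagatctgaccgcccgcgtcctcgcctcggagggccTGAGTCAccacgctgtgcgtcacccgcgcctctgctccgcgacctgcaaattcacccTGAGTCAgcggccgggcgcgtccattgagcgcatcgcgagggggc

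Mcl1 was examined first, as a check of the labels. Its levels were 4.02 and 4.495 in wild-type, 3.24, 3.20 and 3.58 in hemizygous and 1.84, 1.53 and 2.09 in knockout liver at 2 months, so the 3 genotypes did not overlap. Mcl1 fell by 2.44 on the log2 scale (SE 0.37, 5.41-fold, limma adjusted p = 0.046) in the young knockouts relative to wild type. This call was lost in 8 of 15 alternative analyses (adjusted p from 0.0117 to 0.6421), while the change stayed between -2.81 and -2.05. At 12 months Mcl1 was at 4.47, 3.88 and 4.497 in wild-type liver and 2.82, 2.39, 2.54 and 2.73 in non-tumor knockout liver. Whether the probe lies in the deleted part is not given in the labels.

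**Figure D1:**
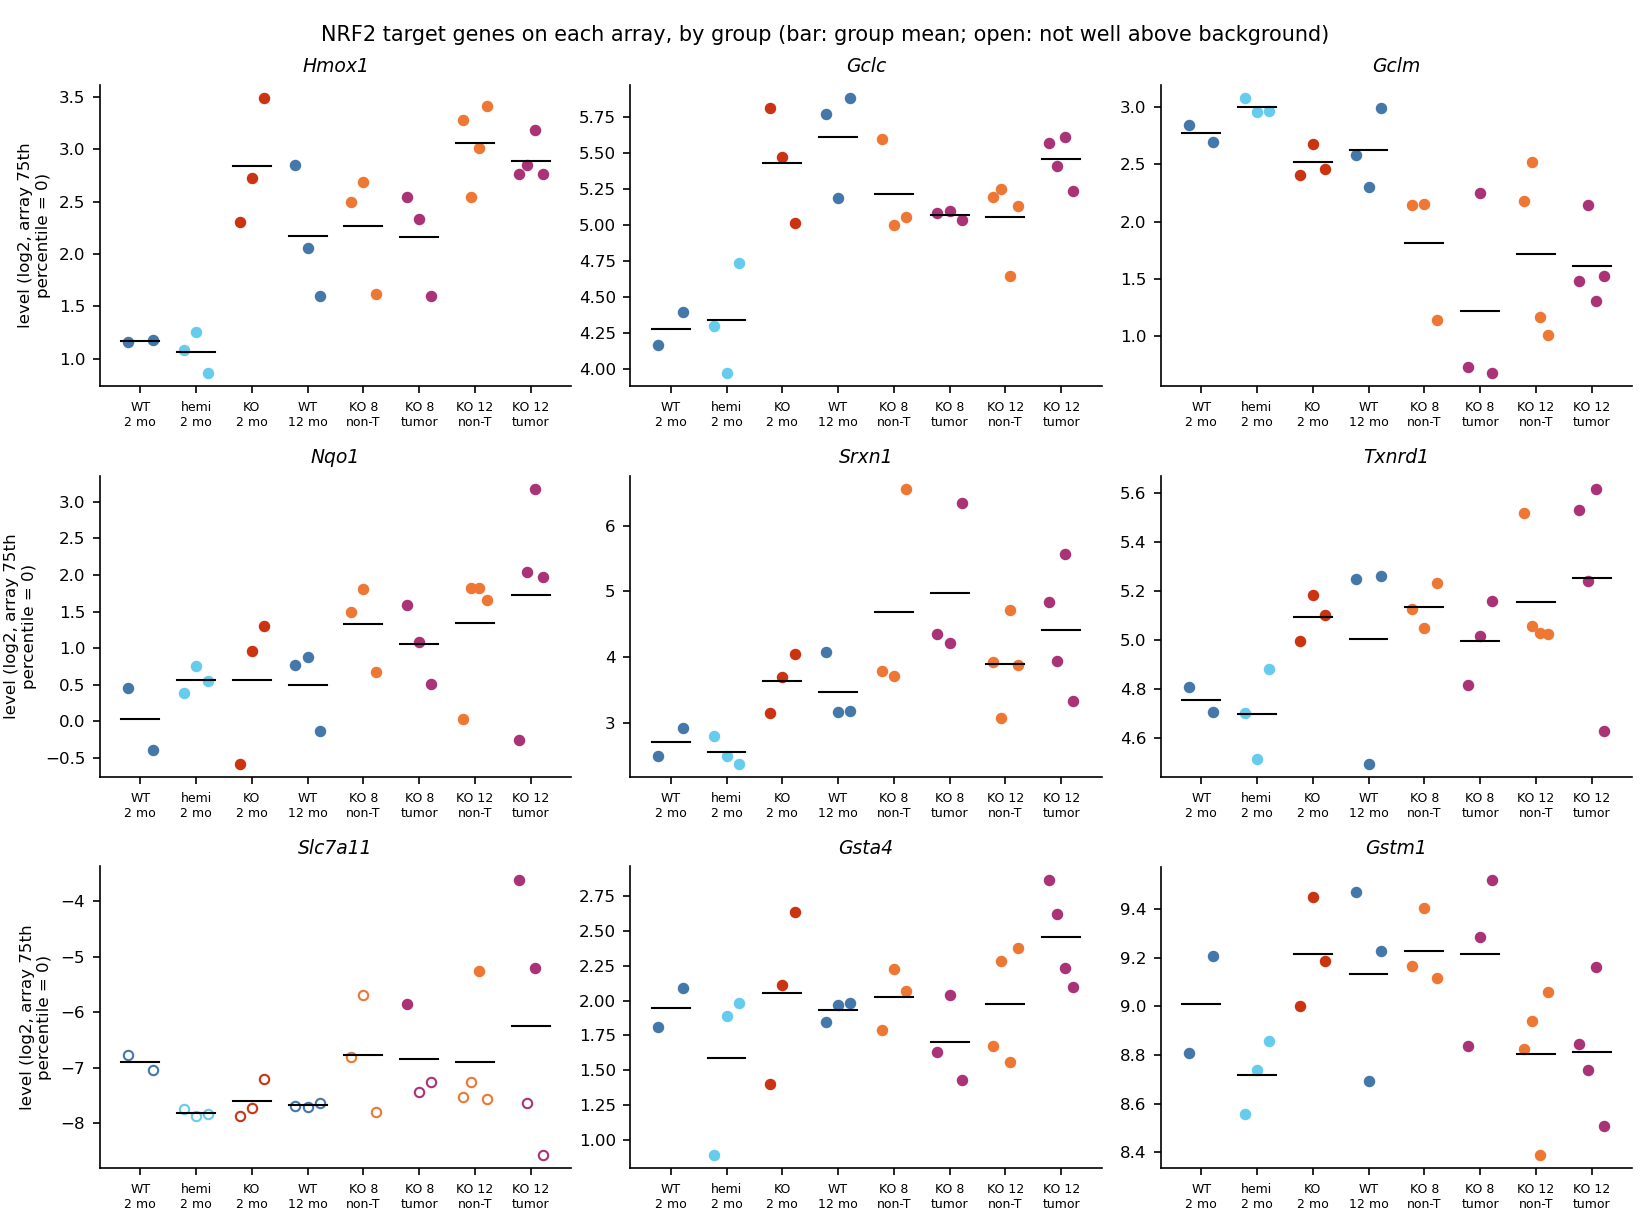
Level of each of the 9 NRF2 target genes (y axis, log2 units with the 75th percentile of the array at 0) on each of 25 arrays, 1 point per array, by group (x axis, WT wild type, hemi hemizygous, KO knockout, non-T non-tumor). Bars are group means and open points were not well above background. Hmox1 lay at 2.30 or above in knockout liver of 2 months and at 1.26 or below in the other livers of that age, and Slc7a11 was open on all but 4 arrays.

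At 2 months, Hmox1 and Gclc were higher in every knockout liver than in every wild-type and hemizygous liver, while none of the 8 genes tested passed the threshold over all features. Hmox1 encodes heme oxygenase 1, the inducible enzyme that opens the heme ring, and sits on chromosome 8 (GRCm38.p6, 75093618 to 75100593). Its levels were 2.30, 2.73 and 3.48 in knockout, 1.16 and 1.18 in wild-type and 1.08, 1.26 and 0.87 in hemizygous liver. The lowest knockout liver was about 1 unit above the highest liver of the other genotypes. Knockout exceeded wild type by 1.67 log2 units (SE 0.44, 3.18-fold, adjusted p = 0.28) and hemizygous liver by 1.77 (SE 0.39, 3.41-fold, adjusted p = 0.16). With slide as a block, the difference from wild type was 0.83. That value rests on knockout 137, the only knockout on a slide with hemizygous liver, and reaches wild type only through hemizygous arrays. The same holds for every gene given with slide as a block in this comparison. On its slide, knockout 137 was 1.13 above the mean of 2 hemizygous arrays, so the 2 values are not separate checks.

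Gclc encodes the catalytic subunit of glutamate-cysteine ligase, the rate-limiting enzyme of glutathione synthesis (chromosome 9, 77754535 to 77794489). Its levels were 5.81, 5.48 and 5.02 in knockout, 4.17 and 4.40 in wild-type and 4.31, 3.98 and 4.74 in hemizygous liver. All 3 knockout livers lay above the other 5. The difference was 1.15 (SE 0.34, 2.22-fold, adjusted p = 0.33) from wild type and 1.09 (SE 0.30, 2.14-fold, adjusted p = 0.30) from hemizygous liver. With slide as a block the first was 2.13, again resting on knockout 137, which was 1.67 above the 2 hemizygous arrays of its slide.

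Gclm, which encodes the modifier subunit of the same ligase (chromosome 3, 122245487 to 122267215), did not follow its partner. It was at 2.41, 2.68 and 2.46 in knockout, 2.84 and 2.69 in wild-type and 3.07, 2.95 and 2.96 in hemizygous liver. The knockout livers were the lowest of the 3 genotypes, by a narrow margin against wild type. The difference from wild type was -0.25 (SE 0.43, adjusted p = 0.92) and that from hemizygous liver -0.48 (SE 0.39, adjusted p = 0.81). With normexp background correction the first shrank to -0.05.

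Of the genes of the thioredoxin system, Srxn1 encodes sulfiredoxin, which repairs over-oxidised peroxiredoxins (chromosome 2, 152105524 to 152111376). Srxn1 was at 3.14, 3.70 and 4.05 in knockout, 2.49 and 2.92 in wild-type and 2.79, 2.50 and 2.38 in hemizygous liver. All 3 knockout livers lay above the other 5, with a difference of 0.92 from wild type (SE 0.70, adjusted p = 0.78) that was 0.17 with slide as a block. The 2 dimmer Srxn1 probes gave 1.30 and 1.05 for the same comparison. Txnrd1, which encodes cytosolic thioredoxin reductase (chromosome 10, 82833951 to 82897724), was at 4.995, 5.18 and 5.10 in knockout against 4.81 and 4.71 in wild-type and 4.70, 4.52 and 4.88 in hemizygous liver. Knockout livers were again above all others, by a smaller step of 0.34 from wild type (SE 0.27, adjusted p = 0.79).

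The detoxifying enzymes of knockout liver overlapped those of wild-type liver at 2 months. Nqo1, which encodes the quinone reductase that is the usual readout of NRF2 activity (chromosome 8, 107388225 to 107403205), was at -0.58, 0.96 and 1.30 in knockout, 0.46 and -0.40 in wild-type and 0.38, 0.76 and 0.55 in hemizygous liver. Knockout 137 was the lowest of the 8 livers and knockout 69 the highest. Gsta4, whose product conjugates the lipid aldehyde hydroxynonenal (chromosome 9, 78191966 to 78209349), was at 1.40, 2.12 and 2.64 in knockout, 1.81 and 2.09 in wild-type and 0.89, 1.89 and 1.98 in hemizygous liver. Gstm1, a mu-class glutathione transferase (chromosome 3, 108012250 to 108017973), was at 9.003, 9.45 and 9.19 in knockout, 8.81 and 9.21 in wild-type and 8.56, 8.74 and 8.86 in hemizygous liver. For Gstm1, every knockout liver thus lay above every hemizygous liver, by a mean of 0.496 (SE 0.26, adjusted p = 0.65). Differences from wild type were 0.53 for Nqo1 (SE 0.62), 0.10 for Gsta4 (SE 0.40) and 0.21 for Gstm1 (SE 0.29). The second Gstm1 probe gave 0.69.

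Counted together at 2 months, 4 of 8 genes (Hmox1, Gclc, Srxn1 and Txnrd1) had every knockout liver above every wild-type liver, as did 17.5% of all 27093 features tested. Gclm alone lay the other way, as did 19.3% of all features. Against hemizygous liver the same 4 genes and Gstm1 were higher without overlap (background 16.0%), and Gclm was lower (background 9.54%). The median difference of the 8 genes was 0.43 from wild type and 0.48 from hemizygous liver, against -0.02 and 0.06 over all features. The adjusted threshold was passed by 0 of the 8 genes in both comparisons, where it was passed by 0.0258% and 0.0517% of all features. At an unadjusted p under 0.05 the count was 2 of 8 (Hmox1 and Gclc) in each, against 8.86% and 8.31% of features. In the comparison with hemizygous liver, Hmox1 (adjusted p = 0.0453) and Gclc (adjusted p = 0.0341) passed after normexp correction with quantile normalisation, and Hmox1 passed with the authors' series matrix values (adjusted p = 0.0489). Knockout and hemizygous mice were not balanced for Xist, a marker of female cells whose levels are given below.

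Between hemizygous and wild-type livers of 2 months, differences ran from -0.36 (Gsta4, SE 0.40) to 0.53 (Nqo1, SE 0.62), and 0 of 8 genes and 0.0% of features passed the threshold. Gclm was the 1 gene without overlap, higher in hemizygous liver (background 8.52%). At an unadjusted p under 0.05 the count was 0 of 8, against 1.25% of features.

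Of the marker lists of cells other than hepatocytes, those of macrophages, neutrophils, stellate cells, bile duct cells and cycling cells had higher mean levels in all 3 young knockouts than in both wild types, and those of endothelial, T and NK, and erythroid cells overlapped. The mean level of 17 measured macrophage and Kupffer cell markers was 1.42 to 1.66 in knockout, -0.19 to -0.10 in wild-type and -0.14 to 0.15 in hemizygous liver. Of the 17, 16 had a difference from wild type above 0, with Gpnmb at 5.93 (SE 1.45, adjusted p = 0.26) and Trem2 at 3.65 (SE 0.96, adjusted p = 0.28). The mean of 7 neutrophil markers ranged from -3.39 to -1.85 in knockout and from -5.32 to -5.28 in wild-type liver, and S100a8 differed by 4.71 (SE 0.80, adjusted p = 0.053). None of these 3 marker genes passed the threshold. The 9 stellate and matrix markers averaged 1.104 to 1.25 in knockout and -0.09 to -0.05 in wild-type liver, and the 7 bile duct markers -2.40 to -2.18 against -3.26 to -2.85. Endothelial markers averaged 0.075 to 1.09 against 0.71 to 0.73, T and NK cell markers -3.35 to -2.95 against -3.68 to -2.75, and erythroid markers 1.42 to 3.67 against 2.81 to 3.63. Means of 9 cycling-cell markers were -1.32 to 1.29 against -2.80 to -2.79, while 8 hepatocyte markers averaged 6.25 to 6.65 against 6.62 to 6.70. Xist, which marks female cells, was well above background in 1 of the 3 young knockouts, in all 3 hemizygous mice and in 1 of the 2 young wild types. On the slide that knockout 137 shared with hemizygous 27 and 28, Xist was at -7.73 against -0.63 and -1.19. Sex therefore cannot be told apart from genotype on that slide, and it was not balanced between all knockout and hemizygous mice. Over 16 alternatives, 1 of them with Xist in the fit, differences from hemizygous liver were 1.13 to 2.04 for Hmox1 and 0.91 to 1.67 for Gclc. When the level of Xist entered the fit, the differences from wild type were 1.72 for Hmox1, 1.102 for Gclc, 0.76 for Srxn1 and 0.27 for Txnrd1, and the value for Txnrd1 with slide as a block was 0.51. The part of the other cell types in the levels of these 4 genes was not tested.

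**Figure D2:**
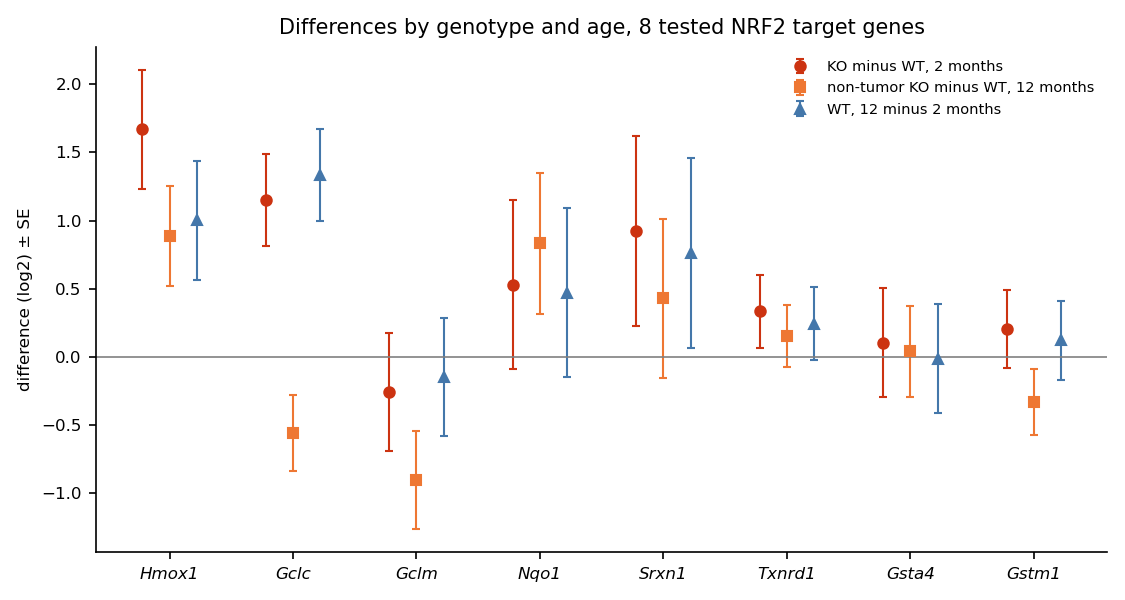
Difference in level (y axis, log2 units) with the standard error of the limma model for the 8 tested NRF2 target genes (x axis) for knockout minus wild type at 2 months, for non-tumor knockout minus wild type at 12 months, and for wild type at 12 minus 2 months. Gclc was 1.15 higher in knockout at 2 months and 0.56 lower at 12 months, and it was 1.33 higher in older than in young wild-type liver.

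In wild-type liver, 3 of the 4 genes that were higher in the young knockouts were also higher at 12 than at 2 months without overlap, none of them past the threshold. Gclc was at 5.78, 5.19 and 5.88 in wild-type liver of 12 months, above both livers of 2 months by 1.33 (SE 0.34, 2.52-fold, adjusted p = 0.17). Without wild-type 641 this difference was 1.55 and passed the threshold (adjusted p = 0.0193), in a fit where 1655 features passed in place of 11. Hmox1 was at 2.85, 2.06 and 1.60, a difference of 1.003 (SE 0.44, adjusted p = 0.44), and Srxn1 was at 4.07, 3.16 and 3.18, a difference of 0.77 (SE 0.70, adjusted p = 0.73). Txnrd1, at 5.25, 4.497 and 5.26, overlapped the young livers (difference 0.25, SE 0.27, adjusted p = 0.78). Higher levels without overlap were thus seen in 3 of 8 genes, against 15.4% of features, and without wild-type 641, left out after its values were seen, in 5 of 8 (Txnrd1 and Gstm1 in addition), against 18.8%. With all arrays, 0 of 8 passed the threshold, against 0.0406%. An unadjusted p under 0.05 was reached by 2 of 8 (Gclc and Hmox1), against 10.6% of features. With slide as a block, Hmox1 (-0.21), Srxn1 (-0.54), Nqo1 (-0.88), Txnrd1 (-0.13) and Gstm1 (-0.42) turned sign and Gclc stood at 2.07. With scan day as a block, Txnrd1 (-0.26), Gstm1 (-0.31) and Gsta4 (0.02) turned sign. Gclc was then 0.91, Hmox1 0.89 and Srxn1 0.45. Wild-type arrays of the 2 ages shared no slide. Wild types 552 and 1110 were also scanned on another day than the young wild types. Among wild types, age therefore cannot be told apart from slide, and without 641 not from scan day either. Wild-type 641 was the only older wild type behind the values with slide or with scan day as a block. With slide as a block it was linked to the young wild types only through knockout and hemizygous arrays.

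At 12 months the knockout no longer stood above wild type for Gclc, and Gclm lay lower in 3 of 4 animals. The genotypes shared no slide at this age. Gclc was at 5.20, 5.26, 4.65 and 5.14 in non-tumor knockout liver, 0.56 below wild type (SE 0.28, adjusted p = 0.33). With scan day as a block, which leaves wild-type 641 as the only control scanned with the knockouts, the difference was -0.13. The difference between genotypes at 12 months minus that at 2 months was -1.71 for Gclc (SE 0.44, adjusted p = 0.42), and -1.28 with scan day as a block. This was the largest such shift among the 8 genes in size, and its sign was the same in all 22 alternatives, with adjusted p from 0.0681 to 0.8507. None of the 8 genes passed in that test, nor did any feature (0.0%). At an unadjusted p under 0.05, Gclc was the 1 gene of 8, against 9.57% of features.

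Gclm was at 2.18, 2.52, 1.17 and 1.01 in non-tumor knockout liver of 12 months and 2.58, 2.30 and 2.99 in wild-type liver. Animals 702 and 793 were more than 1 unit below every wild-type liver, 1109 was just below, and 638 lay among them. The difference was -0.90 (SE 0.36, 1.87-fold, adjusted p = 0.22). Without knockout 638, singled out after its values were seen, it was -1.17 and passed the threshold (adjusted p = 0.0434). In that fit 2859 features passed in place of 4. With scan day as a block, which leaves wild-type 641 as the only control scanned with the knockouts, it was -0.58.

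Hmox1 was at 3.27, 2.54, 3.01 and 3.41 in the same 4 knockout livers, overlapping wild-type 552 at 2.85. Its difference was 0.89 (SE 0.36, 1.85-fold, adjusted p = 0.23). Nqo1 was at 0.03, 1.83, 1.83 and 1.66 against 0.76, 0.87 and -0.13 in wild-type liver. Animal 1109 fell among the wild types and the other 3 knockouts lay above them, with a difference of 0.83 (SE 0.52, adjusted p = 0.44) that was 0.46 with scan day as a block. Srxn1 was 0.43 higher (SE 0.58) and Txnrd1 0.15 higher (SE 0.23). Gstm1 was 0.33 lower on its brightest probe (SE 0.24) and 1.04 lower on its second, and its sign turned under other normalisations.

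No gene of the 8 separated the genotypes at 12 months without overlap in either direction, against 5.43% of features higher and 4.78% lower. When wild-type 641 was left out, a choice made after its values were seen, Gclc, Gclm and Gstm1 were lower without overlap, against 6.76% of features. The threshold was passed by 0 of 8 genes and 0.0148% of features, and an unadjusted p under 0.05 by 2 of 8 (Gclm and Hmox1) and 17.2% of features. Macrophage markers averaged 1.51 to 2.03 in these knockout livers and -0.74 to 1.26 in wild-type liver, and hepatocyte markers 5.57 to 6.10 against 6.16 to 6.69. The part of these cells in the values of Hmox1 and Gclm was not tested.

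Among the regulators, none passed the threshold. In knockout mice the non-tumor liver of 8 months lay apart from the liver of 2 months, while that of 12 months overlapped it on the brightest probes. Nfe2l2 was at 4.10, 3.68 and 3.57 in knockout liver of 2 months and 5.13, 4.18 and 4.29 in non-tumor liver of 8 months, a difference of 0.75 (SE 0.32, adjusted p = 0.27). Keap1 was at 3.58, 4.23 and 4.28 at 2 months and 2.80, 3.06 and 3.07 at 8 months, a difference of -1.05 (SE 0.36, adjusted p = 0.20). Bach1 was at -0.23, 0.25 and -0.62 at 2 months and -2.77, -2.11 and -1.46 at 8 months, a difference of -1.91 (SE 0.50, adjusted p = 0.15). For all 3 regulators the ages did not overlap, as for 12.8% of features higher and 11.5% lower at 8 months. Knockout arrays of different ages shared no slide, so age cannot be told apart from slide here. From 2 to 12 months the differences were 0.58 for Nfe2l2 (SE 0.30), -0.40 for Keap1 (SE 0.34) and -0.94 for Bach1 (SE 0.47), with overlap in each. The second Nfe2l2 probe gave 0.74 without overlap, at 3.72 to 4.22 against 3.02 to 3.45.

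At 12 months the regulators of non-tumor knockout liver differed between animals. Keap1 was at 3.20, 4.72, 3.03 and 3.57 against 4.33, 4.32 and 4.73 in wild-type liver, so animal 638 lay with the wild types and the others below them. Bach1 was at -2.07, 0.14, -1.81 and -0.82 against 0.32, 0.41 and 0.74, and 638 was again nearest to wild type. The differences were -0.83 for Keap1 (SE 0.34, adjusted p = 0.23) and -1.63 for Bach1 (SE 0.47, adjusted p = 0.13). Without 638 both passed, at -1.19 (adjusted p = 0.0111) and -2.06 (adjusted p = 0.0095). Animal 638 was singled out here by these same levels, and far more features passed in that fit than with all arrays. These calls are therefore no separate support. Nfe2l2 was 0.58 higher with overlap (SE 0.30, adjusted p = 0.35). Its second probe gave 0.95 without overlap, at 3.72 to 4.22 in knockout and 2.62 to 3.35 in wild-type liver. In young liver Nfe2l2 and Keap1 differed from wild type by 0.32 and 0.23, and the latter was -0.16 with slide as a block. Bach1 was at 0.36 and 0.77 in young wild-type liver, above all 3 young knockouts, a difference of -0.77 (SE 0.56, adjusted p = 0.76) that was -0.12 with slide as a block.

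**Figure D3:**
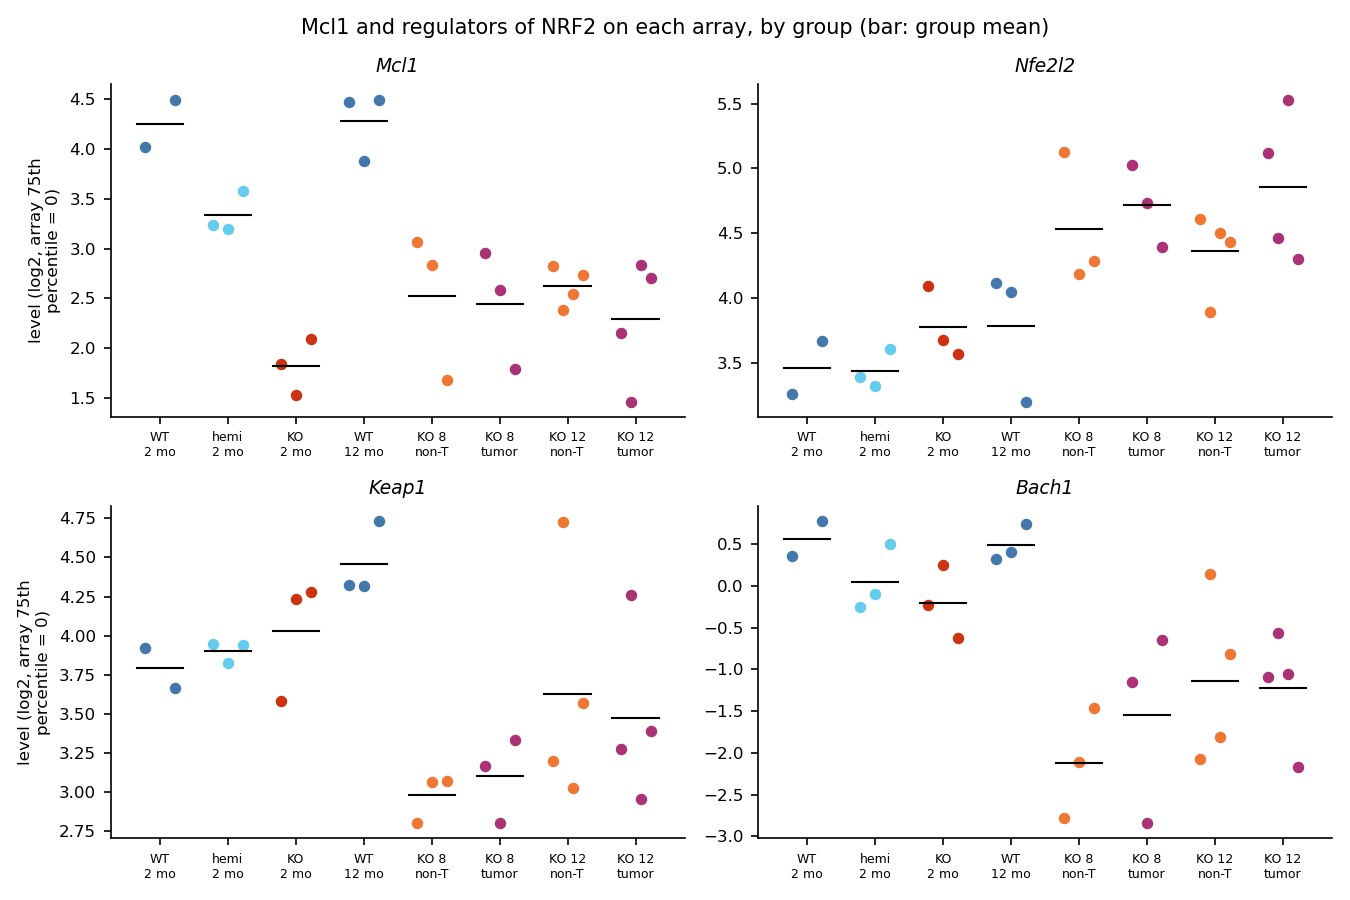
Level of Mcl1 and of 3 regulators of NRF2 (y axis, log2 units with the 75th percentile of the array at 0) on each of 25 arrays, by group (x axis, WT wild type, hemi hemizygous, KO knockout, non-T non-tumor), with bars at group means. Bach1 lay between -2.77 and -1.46 in non-tumor liver of 8 months and between -0.62 and 0.25 in knockout liver of 2 months.

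With age, knockout liver showed no called change in any of the 8 genes, and the ages compared shared no slide. From 2 to 8 months Gclm was lower in all 3 non-tumor livers (2.14, 2.16 and 1.15) than in all 3 young ones, by 0.70 (SE 0.39, adjusted p = 0.40), and this was 0.37 without animal 934. It was the 1 gene of 8 without overlap, against 11.5% of features, and 0 of 8 genes and 0.0% of features passed, with 0 of 8 and 16.0% at an unadjusted p under 0.05. From 2 to 12 months Gclm differed by -0.79 (SE 0.36, adjusted p = 0.28), 0 of 8 genes and 0.00738% of features passed, and the counts at an unadjusted p under 0.05 were 1 of 8 and 17.3%. Hmox1 was at 2.50, 2.69 and 1.62 at 8 months, below the 12-month livers by 0.79 (SE 0.36, adjusted p = 0.92), where 0 of 8 genes and 0.0% of features passed and 1 of 8 and 5.23% had an unadjusted p under 0.05. Gstm1 did not overlap between 8 and 12 months and was lower at 12, as were 4.32% of features, by 0.43 on its brightest probe (SE 0.24). Its second probe gave 0.20 in the other direction, and the brightest gave -0.06 with quantile normalisation, with normexp and with the series matrix values.

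Srxn1 had its highest levels in 1 animal. In knockout 934 it was at 6.35 in the tumor and 6.55 in the liver beside it, against 4.35 and 3.78 in 1347 and 4.22 and 3.71 in 1287. On the second probe, animal 934 was at 3.28 and 3.45 and the other 4 samples between -0.63 and 0.54, and on the third it was at 2.77 and 3.05 and they between -0.90 and 0.23. All 3 probes thus placed both samples of 934 more than 1 unit above the other mice of 8 months. The difference between non-tumor liver of 8 months and knockout liver of 2 months was 1.05 (SE 0.62, adjusted p = 0.43) and 0.12 without 934. Gclm in 934 was at 0.69 in the tumor and 1.15 beside it, among the lowest values of that gene.

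**Figure D4:**
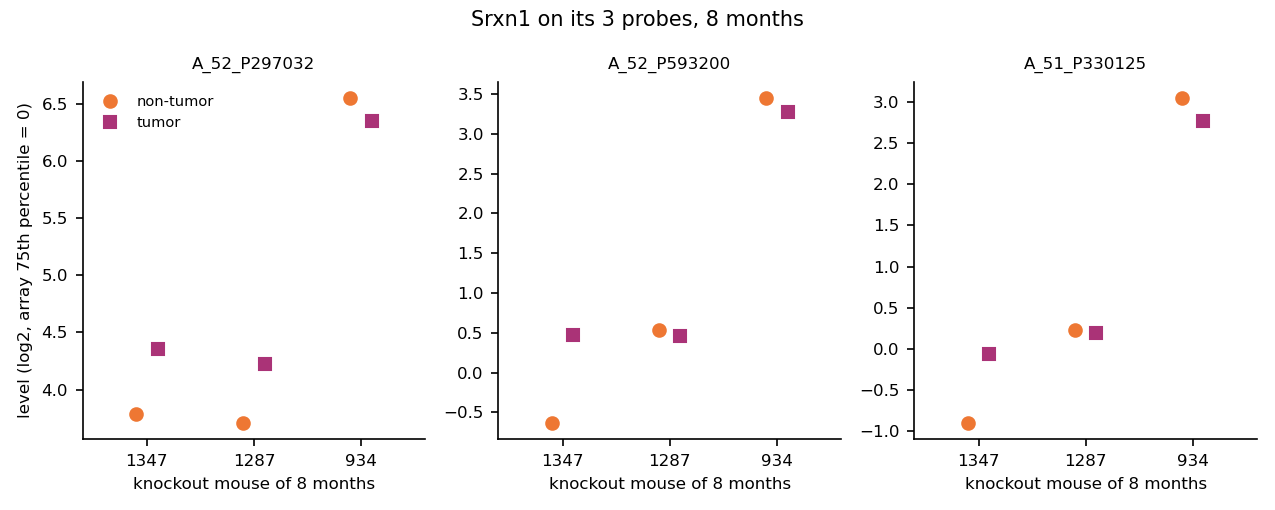
Level of Srxn1 (y axis, log2 units with the 75th percentile of the array at 0) on each of its 3 probes, 1 panel per probe, in tumor and non-tumor tissue of the 3 knockout mice of 8 months (x axis). Animal 934 is highest in both tissues on every probe, at 6.35 and 6.55 on the brightest.

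Gclm and Srxn1 ran against each other across the 25 arrays, with a Pearson correlation of -0.79, and of -0.60 after each group's mean was removed. Over all arrays this was the largest correlation in size among all pairs of the 8 genes, singled out after the values were seen. It includes both arrays of animal 934, high for Srxn1 and low for Gclm, and no value without them is given. The 14 arrays of the older knockouts come in pairs from 7 mice, and arrays share slides, so the correlation is a description. The closest positive pairing among the 8 genes over all arrays was Gclc with Txnrd1 at 0.63 (0.51 within groups), and within groups it was Txnrd1 with Gstm1 at 0.61 (0.40 over all arrays), whereas Gclc and Gclm, the subunits of 1 enzyme, had -0.20 over all arrays and 0.28 within groups. The genes outside the set whose levels ran closest to the mean of the scaled levels of the set, among 14350 genes on 25 arrays, were Gsta1 (r = 0.82), Gsta2 (r = 0.81), Tgm2 (r = 0.80), Comtd1 (r = 0.79) and Adamts15 (r = 0.78). Gsta1 and Gsta2 are near-identical alpha-class glutathione transferases, and their probes may share signal.

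In tumors, none of the 9 genes differed from the liver of the same animal past the threshold, and Srxn1 came nearest. Srxn1 was higher in the tumor in 5 of 7 mice, with differences of 0.57, 0.51 and -0.21 in the mice of 8 months and 0.92, 0.86, 0.84 and -0.56 in those of 12 months. The mean was 0.42 (SE 0.22, 1.34-fold, adjusted p = 0.9995), and animals 934 and 793 went the other way. Gclm was lower in the tumor in 4 of 7 mice, most of all in 1347 by 1.41, whose tumor lay on another slide and was scanned on another day than its partner. The mean for Gclm was -0.31 (SE 0.23), and -0.13 without 1347. Hmox1 differed by -0.15 (SE 0.17) and Gclc by 0.17 (SE 0.17).

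Nqo1 differed widely between mice in both tissues. Its tumor levels were 1.59, 1.09 and 0.51 at 8 months and -0.26, 2.04, 3.17 and 1.97 at 12 months, and animal 1109 was lowest in both tissues. The largest pair difference was 1.34 in animal 702. Gsta4 differed by -0.16, -0.18 and -0.64 in the mice of 8 months and by 1.19, 0.34, 0.67 and -0.28 in those of 12 months. All 3 younger mice had less in the tumor and 3 of 4 older mice had more, and the difference between ages was 0.81 (SE 0.40, adjusted p = 0.84). The mean difference was -0.0041 for Txnrd1 (SE 0.16) and -0.0005 for Gstm1 (SE 0.19).

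Slc7a11, which encodes the cystine importer that feeds glutathione synthesis (chromosome 3, 50364936 to 50499087), was not well above background on its brightest probe on any array of wild-type, hemizygous or young knockout liver. It was well above background in the tumors of 1347 (-5.85), 1109 (-3.62) and 702 (-5.19) and in the non-tumor liver of 702 (-5.25), that is in 3 of 7 tumors and 1 of 7 non-tumor samples. In animal 1109 the tumor was 3.92 above a liver sample that was not well above background. In animal 702, the 1 mouse with both samples well above background, they differed by 0.06. The mean over the pairs was 0.34 (SE 0.60), but it is not read as a change, since 10 of the 14 samples were not well above background. On the second Slc7a11 probe, 1 of the 2 young wild-type arrays was well above background, at -3.76. On the 2 dimmer probes, the tumor means of 12 months were -6.50 and -7.45, and 1 of 4 and 0 of 4 of these tumors were well above background.

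**Figure D5:**
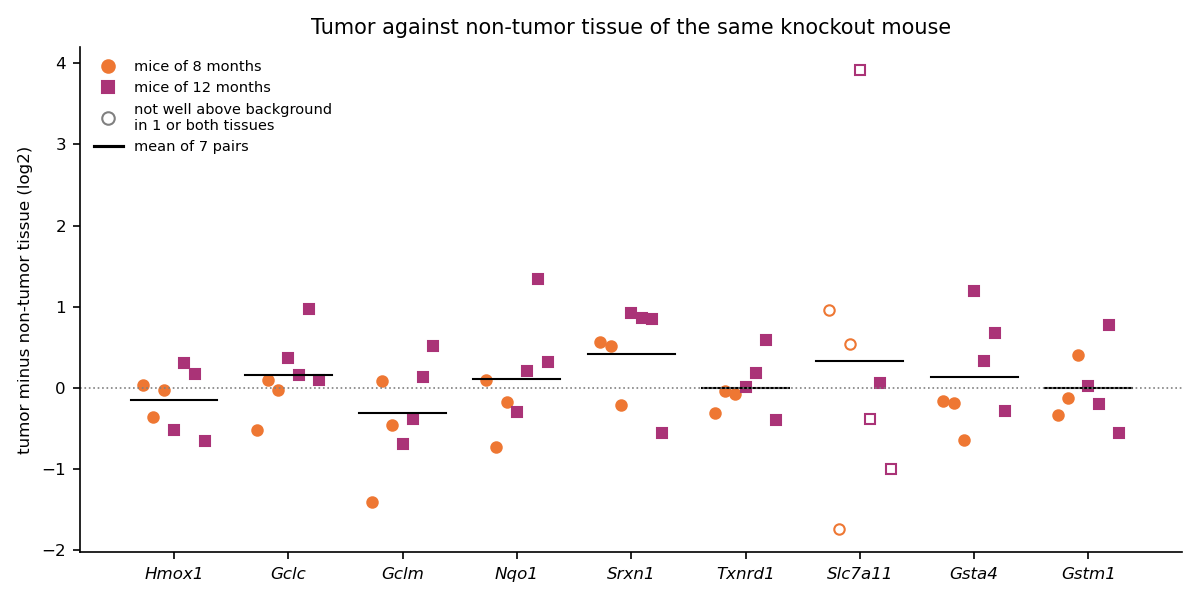
Tumor minus non-tumor level (y axis, log2 units) of the 9 NRF2 target genes (x axis) in each of 7 knockout mice, with bars at the mean of 7 pairs and open points where 1 or both tissues were not well above background, as in 6 of 7 pairs for Slc7a11. Srxn1 was above 0 in 5 of 7 mice, and the Slc7a11 point at 3.92 is animal 1109.

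Of the 8 genes other than Slc7a11, 4 had a mean tumor difference above 0 and 4 below. None of the 9 genes was higher in the tumor in all 7 pairs, or lower in all 7, against 0.618% and 0.85% of features. At an unadjusted p under 0.05 the count was 0 of 9, against 3.93% of features, and at the adjusted threshold 0 of 9 against 0.0%. Between ages the tumor differences gave 0 of 9 genes and 0.0% of features past the threshold, and 0 of 9 against 6.06% at an unadjusted p under 0.05. Nfe2l2 was 0.36 higher in tumors (SE 0.18) and Cbr3, a carbonyl reductase gene, 0.99 higher (SE 0.35), neither past the threshold. The second Nfe2l2 probe gave 0.15.

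The wider pathway was read from 8 lists of 95 genes, 89 of them tested, and none passed the threshold in any comparison. At 2 months, 45 were above 0 and 44 below against wild type, where 48.9% of all features were above 0, with a median of 0.01. The NADPH list gave 4 of 7 above 0, including Pgd at 0.94 (SE 0.46) and G6pdx at 0.87 (SE 0.44), enzymes of the pentose phosphate pathway. Detoxifying enzymes gave 11 of 16 above 0, led by Ugdh at 1.14 (SE 0.43), and transporters 4 of 8, with the glutathione-conjugate exporter gene Abcc1 at 1.21 (SE 0.45). The thioredoxin list leaned the other way, with 10 of 12 below 0 and Txnrd3 at -0.85 (SE 0.28), and the other glutathione transferases had 10 of 18 above 0 and Gstt2 at -1.22 (SE 0.48). Regulators gave 7 of 11 above 0, glutathione synthesis and recycling 5 of 10, and heme and iron 2 of 7. Against hemizygous liver, Sqstm1, whose product binds KEAP1, was 0.95 higher (SE 0.29, adjusted p = 0.38) and Gstp1 1.35 higher (SE 0.46).

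At 12 months, 30 of the 89 genes were above 0 and 59 below in knockout non-tumor tissue relative to wild type (44.9% of all features were above 0), with a median of -0.27 against -0.09 over all features. The lowest were Oplah, a glutathione-cycle enzyme gene, at -1.65 (SE 0.36, adjusted p = 0.10), mitochondrial Txnrd2 at -1.28 (SE 0.29, adjusted p = 0.10), the aldehyde reductase gene Akr7a5 at -1.23 (SE 0.31) and the transporter gene Abcc3 at -0.91 (SE 0.24). Akr1b10 (1.55, SE 0.36), Akr1b8 (1.28, SE 0.39), Abcc5 (1.31, SE 0.37) and Abcc1 (1.19, SE 0.38) were higher. Akr1b8 and Akr1b10 are close relatives, and their probes may share signal. Without knockout 638, 12 pathway genes passed as lower and 4 as higher, in the fit where 2859 features passed. With all animals kept, 3 passed as lower and 1 as higher with normexp, where the count over all features also rose. The counts were 4 and 1 with only genes well above background on every array, and 1 and 0 with the series matrix values. A few also passed in other runs for knockout liver of 8 or 12 against 2 months. In wild-type liver, 57 of 89 were above 0 at 12 against 2 months and 32 below, where 48.5% of all features were above 0, with a median of 0.15 against -0.02, and Mgst3 at 1.53 (SE 0.57) and Cyp2a5 at -1.82 (SE 0.68) had the smallest p among the transferases and the detoxifying enzymes.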

How the data were processed

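The deposited Agilent Feature Extraction files hold spot intensity values, background-subtracted and detrended within each array per the file headers, and a series matrix deposited with them holds log2 values whose normalisation between arrays is not given in the sources used here. The submitters' processing notes name limma. Spots of a probe were averaged, probes were named by accession from the RefSeq table of GRCm38.p6 (24375 of 41174 probes, 17016 symbols, and 16799 probes without a symbol were tested unnamed), and a gene was read from its brightest probe. A feature was kept when well above background on 2 of 18 non-tumor arrays or 3 of 14 paired arrays. Differences were tested with limma 3.58.1 in R 4.3.3 (moderated, two-sided, 6 groups, or animal as a block for tumors), adjusted by Benjamini and Hochberg over all features, threshold 0.05, and spread is that between animals. The 7 tumor pairs come from the animal numbers, and deviations of partners correlated at 0.23 to 0.75. In 5 of the 7 pairs the own partner correlated best, and in 1347 and 1287 it did not. The rule named the 9 genes, Mcl1, 3 regulators, up to 3 genes of each list by p, and 5 genes of the most similar profile. Members and lists were chosen with earlier results of these data known. Normexp (offset 50) used median signals, since no mean signal column was used here. The number of arrays limits the precision. The model was tested on simulated data.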

Additional observations from a re-analysis of the deposited data

Results flagged for a closer look

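For the 8 NRF2 target genes other than Slc7a11, outlying values were looked for with Dixon's ratio in the levels of the 4 tumors and of the 4 non-tumor livers of 12 months, and in the 7 differences between tumor and non-tumor tissue. Of 24 such tests, 2 stood out, where chance gives about 1 in 20, and both were the non-tumor liver of knockout 1109 at 12 months. Nqo1 was at 0.033 there, below the other 3 livers of the group at 1.66 to 1.83 (ratio 0.905). Txnrd1 was at 5.519, above the others at 5.02 to 5.06 (ratio 0.931). The tumor of 1109 was likewise the lowest of the 4 tumors for Nqo1, at -0.26, and its Txnrd1 level was 5.53.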

How the results depend on the processing

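The count of NRF2 target genes past the threshold was 0 in all 11 comparisons and in every alternative run except 4. It was 2 (Hmox1 and Gclc) with normexp and 1 (Hmox1) with the series matrix values in knockout against hemizygous liver. Leaving out single arrays gave 0 to 1 in wild-type liver at 12 against 2 months (Gclc without wild-type 641) and 0 to 1 between genotypes at 12 months (Gclm without knockout 638). Without the animal as a replicate block, the tumor comparisons still called 0 genes. Signs turned for Gsta4 at 2 months against wild type (-0.04 without wild-type 31, and -0.19 to 0.43 over all single arrays left out). They also turned for Nqo1 (-0.63) and Keap1 (-0.16) there with slide as a block, which rests on knockout 137. In wild-type liver by age, slide as a block turned Hmox1 (-0.21), Srxn1 (-0.54), Nqo1 (-0.88), Txnrd1 (-0.13) and Gstm1 (-0.42). Scan day as a block turned Txnrd1 (-0.26), Gstm1 (-0.31) and Gsta4 (0.02) in the same comparison. Either block leaves wild-type 641 as the only older wild type that counts there. Gstm1 at 12 months turned to 0.32 with normexp, 0.18 with quantile normalisation, 0.32 with the series matrix and 0.11 with scan day as a block, Txnrd1 there to -0.10 without wild-type 641 (-0.10 to 0.29 over arrays left out), and Slc7a11 in tumors, mostly from samples not well above background, from 0.34 to -0.26 without 1109 (-0.26 to 0.68 over mice left out). The cause was not tested. Of 90 pairs of gene and comparison, 46 kept their sign in every alternative. Counts over all features moved from 4 to 460 with normexp at 12 months and from 14 to 69 against hemizygous liver. With 2 to 4 animals per group, changes near 1 log2 unit had SEs of 0.3 to 0.7.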
